A study of Mus musculus with 13 samples.

Results

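Transcript levels of 40 nucleolar ribosome biogenesis genes were followed in 13 mouse NUT carcinoma (mNC) tumors. The genes were picked by name, as known parts of the machinery that transcribes, modifies and cleaves pre-rRNA and assembles the ribosomal subunits, by a rule that uses no measured value, although earlier results of these data were known when the list was made. All 40 were found by symbol among 56085 genes listed for these tumors, of which 55332 had values. NUT carcinoma is a poorly differentiated squamous cancer, and every tumor here carried the Cre-dependent NCT allele of the mouse model in the heterozygous state. The oral tumors were 4 Sox2 wild-type (WT) tumors of genotype KRT14-Cre; NCT+/- and 2 Sox2 knockout (KO) tumors with the labelled genotype KRT4Cre; NCT+/-; Sox2fl/fl, for which the study's own text names KRT14-Cre as the driver. The pancreatic tumors were 4 Sox2 WT tumors of genotype Pdx1-Cre; NCT+/- and 3 Sox2 KO tumors labelled Pdx1-Cre; NCT+/-; Sox2fl; fl. Cre came from keratin or Pdx1 promoter lines that need no inducer, and each library was made from dissected bulk tumor tissue. The labels give no age for the animals and do not say that the tumors of a group came from separate mice, so p-values measure the spread between these tumors.

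The nucleolus forms around the rDNA repeats, where RNA polymerase I makes the long pre-rRNA. Small nucleolar ribonucleoproteins (snoRNPs) guide ribose methylation (box C/D) and pseudouridylation (box H/ACA) of this transcript, while the small subunit processome and the large subunit assembly factors fold and cleave it around the ribosomal proteins. Growing cells make much of this machinery, and many of its genes are known targets of MYC, which is abundant in NUT carcinoma.

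RNA was sequenced as rRNA-depleted, strand-specific total RNA, and the values were estimated counts per gene. Totals per tumor were 29394258 to 40420228 in oral WT, 11735315 and 20432164 in oral KO, 40964533 to 46134830 in pancreatic WT and 89562790 to 120482829 in pancreatic KO, so the oral KO tumors were the shallowest. Sox2 had 410 to 680 counts in oral WT and 1111 to 1487 in pancreatic WT tumors, against 0 to 1 in oral KO and 0 to 2 in pancreatic KO tumors, as labelled. Basal squamous markers were present in every tumor, with 8 genes summing to 3962 to 17660 CPM. CPM are counts scaled to the library total multiplied by its TMM factor, which adjusts for RNA composition. This factor was 0.859 in oral KO 1, 1.255 in oral KO 2 and 1.034 to 1.134 in oral WT tumors. Overlap between groups was judged on these CPM, and its dependence on the factors was not tested. Oral KO 1 stood apart, with 59.5% of its counts in protein-coding genes, against 84.5% in oral KO 2 and 85.1% to 91.7% in the other tumors. All 15 skeletal muscle markers were found, and their summed level was 5984 and 3314 CPM in the oral KO tumors, 637 CPM in oral WT 4, 13.9 to 19.99 CPM in the other oral WT tumors and at most 7.54 CPM in the pancreatic tumors. The summed level of all snoRNA and scaRNA genes was 4118 and 1787 CPM in oral KO tumors and 889 to 1021 CPM in oral WT tumors.

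Every gene of the set was well covered. The lowest count of any of them in any tumor was 100, for Gar1, and all 40 passed the filter of 10 counts in at least 2 tumors in each comparison. Together they took 0.362% to 0.469% of all counts in oral WT tumors, 0.175% and 0.341% in oral KO, 0.248% to 0.345% in pancreatic WT and 0.329% to 0.369% in pancreatic KO tumors. The share was therefore lowest in oral KO 1, and that of oral KO 2 lay below the oral WT range and within the pancreatic WT range.

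Levels were compared between genes as mean CPM per kb of principal transcript. Npm1 (nucleophosmin, a histone and ribosome chaperone) was highest in both tissues, at 375 CPM per kb in oral WT and 401 CPM per kb in pancreatic WT tumors. Ncl (nucleolin, an RNA-binding protein of the nucleolus) followed in oral WT tumors at 84.6 CPM per kb, ahead of Fbl (fibrillarin, the methyltransferase of box C/D snoRNPs) at 81.9 CPM per kb. With coefficients of variation of 20.4% and 27.1% between oral WT tumors, the order of Ncl and Fbl did not exceed their spread. The scaffold proteins of the box C/D particle, Nop58 and Nop56, came next at 72.6 and 55.0 CPM per kb. In pancreatic WT tumors the same 5 genes led, in the order Npm1, Fbl, Nop58, Ncl and Nop56, and Fbl, Nop58 and Ncl lay between 62.6 and 63.4 CPM per kb, closer than their spread. At the low end were Wdr12 at 3.12, Polr1a at 6.99 and Utp20 at 7.70 CPM per kb in oral WT tumors, all with principal transcripts of over 8 kb. The transcripts taken for Ncl and Wdr12 have 8202 and 10012 bases, with coding sequences of 2121 and 1269 bases. Among principal transcripts of equal coding length the longest was taken, so the places of Ncl and Wdr12 per kb are uncertain. Ubtf, the architectural factor of rDNA, stood above the other genes of rDNA transcription at 36.0 CPM per kb, against 23.3 for the initiation factor Rrn3 and 8.44 for Polr1b, the second largest polymerase subunit.

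The promoters of the set were searched for the E-box CACGTG, the sequence that MYC-MAX dimers bind, to show where such sites lie in these genes. RefSeq promoter windows (GRCm38.p6, 250 bases before to 50 after the start) were matched for 35 of the 40 genes, the exceptions being Bop1, Fbl, Npm1, Rrp12 and Rrs1. The E-box, which reads the same on both strands, was found in 8 of 35 (22.9%), against 8.09% of all genes with a promoter window. The 8 genes were Grwd1, Ltv1, Nop2, Pes1, Rrn3, Tsr1, Utp20 and Wdr43. Windows are printed for Ltv1 and Pes1, which were lower in oral KO tumors, for Rrn3, which held 2 matches, and for Utp20, which was not lower there. Each is written 5′ to 3′ on the strand of the gene, with the E-box in capitals. They lie at chr10:13193092-13193121 (minus strand, Ltv1), chr11:3963965-3963994 (plus strand, Pes1), chr16:13780472-13780501 and chr16:13780639-13780668 (plus strand, Rrn3) and chr10:88826765-88826789 (minus strand, Utp20).
Ltv1: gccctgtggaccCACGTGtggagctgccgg
Pes1: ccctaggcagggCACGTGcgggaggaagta
Rrn3, site 1: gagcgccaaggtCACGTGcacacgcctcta
Rrn3, site 2: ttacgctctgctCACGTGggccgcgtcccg
Utp20: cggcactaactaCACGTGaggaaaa
The E-box began 28 bases after the start in Ltv1 and 2 bases after it in Pes1, while both Rrn3 matches lay before the start, at 215 and 48 bases. A second motif, CCGGAAG, a core sequence of ETS factors searched on both strands, was found in 13 of 35 promoters of the set (37.1%) and in 9.93% of all genes. Neither motif contains the other, and Grwd1, Ltv1, Nop2, Rrn3 and Tsr1 held both. A match is a description of the sequence, and no binding was measured.

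In oral tumors, the question was which of these genes differed with Sox2 loss, and most of them were measured lower in KO tumors. Adjusted p under 0.05 in edgeR's quasi-likelihood test with Benjamini-Hochberg adjustment was met by 7 of 40, all lower in KO (17.5%), against 4.58% of the 22342 genes tested that were called lower and 5.74% of protein-coding genes. The 7 genes were Fbl, Gar1, Nop10, Pes1, Ltv1, Rrs1 and Ebna1bp2. None of the 40 was called higher, against 9.2% of all genes and 3.51% of protein-coding genes. At an unadjusted p under 0.05, 25 of 40 (62.5%) were lower and 0 higher, against 35.4% of all genes in either direction. DESeq2 called 10 lower and 0 higher, and 23.2% of all genes in either direction. The median log2 fold change of the 40 genes was -0.55, against -0.00 for all genes tested and -0.21 for protein-coding genes. The difference was below 0 for 34 of 40, against 50.1% of all genes tested and 60.9% of protein-coding genes. Both KO tumors lay below all 4 WT tumors for 29 of 40, against 25.5% of all genes and 32.2% of protein-coding genes. These values came with the muscle markers, the RNA composition of oral KO 1 and the lower depth described above, and their part in the result was not tested. In bulk tumors, fewer cells of a type and less RNA per cell cannot be told apart.

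**Figure D1:**
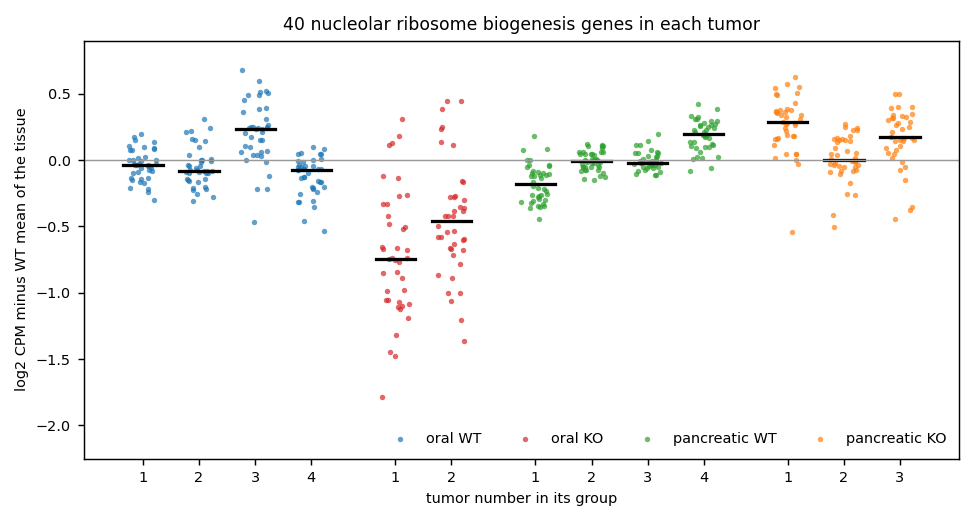
The log2 CPM of each of the 40 genes minus the mean of the WT tumors of the same tissue, in each of the 13 tumors (points, 1 per gene; black lines, median of the 40). The medians of oral KO 1 and 2 were -0.74 and -0.46, below all other tumors, while the pancreatic KO medians, 0.29, -0.00 and 0.17, overlapped those of pancreatic WT tumors.

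The calls rested on few tumors. None of the 40 was called without oral WT 1 or without oral WT 2, and 4 were called without oral WT 3. Calls fell for genes at large as well, to 0.324%, 0.163% and 6.6% of all genes tested in these fits, against 13.8% in the full fit. The direction of the set did not depend on 1 tumor, since the median stayed between -0.66 (without oral KO 2) and -0.43 (without oral KO 1), and 33 of 40 were below 0 without oral KO 1. With protein-coding genes alone in the fit and its scaling, the median of protein-coding genes moved from -0.21 to -0.02, that of the 40 genes became -0.36, 31 were below 0 and 0 of 40 were called, as were 0.165% of the genes tested. Relative to the protein-coding median the set stood at -0.34 in both fits, but at -0.16 without oral KO 1 and at -0.43 without oral KO 2.

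Among the snoRNP proteins, the 7 core genes that are in the set were all lower in both oral KO tumors than in every oral WT tumor. The same held for 25.5% of all genes and 32.2% of protein-coding genes, and 3 of the 7 passed the test. Fbl measured 86.0, 85.1, 138 and 83.1 CPM in oral WT 1 to 4 and 27.4 and 45.5 CPM in oral KO 1 and 2. The groups did not overlap, and Fbl was 2.56-fold lower in KO (log2 fold change -1.36, SE 0.32, adjusted p = 0.037). The sequence of Fbl shares 20.8% of its 31-base words with other genes, mostly with the pseudogene Gm5812, so part of its reads may be split between them. Gar1, a core protein of the box H/ACA particle, measured 27.7, 26.1, 38.4 and 21.8 CPM in oral WT and 9.93 and 13.7 CPM in oral KO tumors. Gar1 was 2.29-fold lower (log2 fold change -1.20, SE 0.30, adjusted p = 0.043). Nop10, the smallest protein of this particle, measured 26.3, 33.7, 32.6 and 18.5 CPM in oral WT and 12.5 and 10.2 CPM in oral KO tumors. It was 2.32-fold lower (log2 fold change -1.21, SE 0.31, adjusted p = 0.045), with the lowest WT value, in oral WT 4, closest to the KO tumors. Dkc1, the pseudouridine synthase, measured 77.4, 75.3, 124 and 79.1 CPM in oral WT and 40.01 and 57.1 CPM in oral KO tumors, and its difference did not pass (log2 fold change -0.80, SE 0.29, adjusted p = 0.096). Nop56 measured 116, 103, 105 and 88.4 CPM in oral WT and 64.2 and 78.7 CPM in oral KO tumors, a smaller gap (log2 fold change -0.45, SE 0.19, adjusted p = 0.13). Nop58 and Nhp2 gave log2 fold changes of -0.54 and -0.71 with adjusted p of 0.20 and 0.083.

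**Figure D2:**
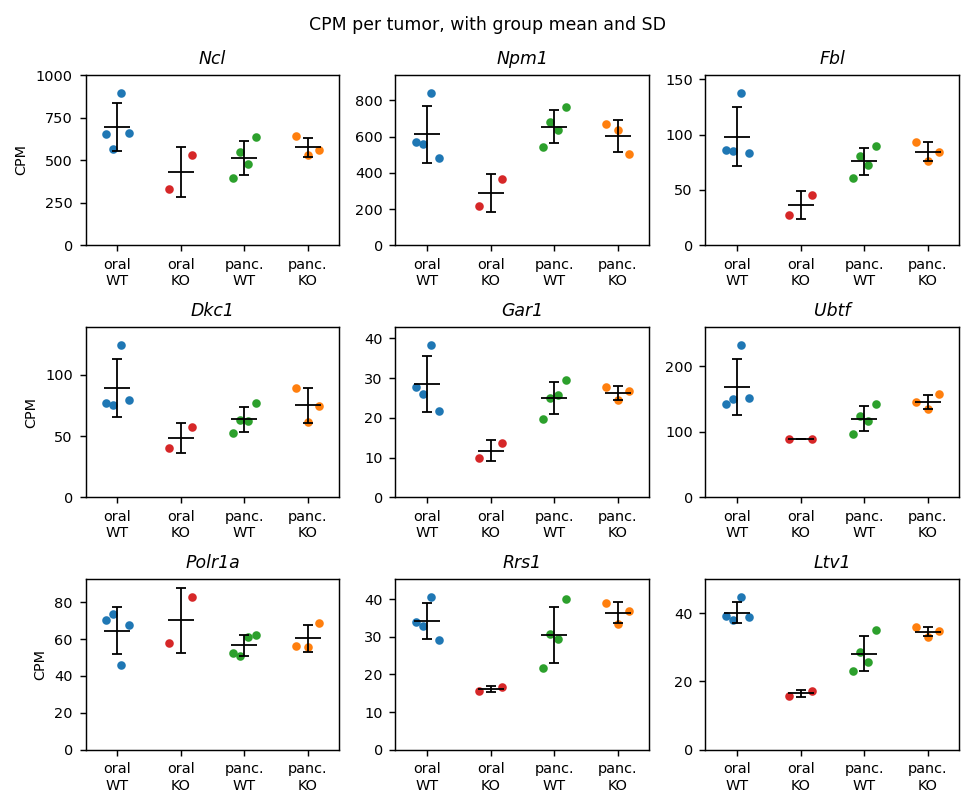
CPM of 9 of the genes in each tumor (points), with the group mean and SD (bars), on linear axes that start at 0; groups are oral WT (4 tumors), oral KO (2), pancreatic WT (4) and pancreatic KO (3). Both oral KO tumors lay below every oral WT tumor for all genes shown except Polr1a.

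The nucleolar scaffold and chaperone genes were also measured lower, without passing the test. Ncl measured 656, 564, 896 and 659 CPM in oral WT tumors and 329 and 533 CPM in oral KO tumors. Oral KO 2 lay just below the lowest WT tumor, and the log2 fold change was -0.62 (SE 0.29, adjusted p = 0.17). Npm1 measured 570, 561, 841 and 481 CPM in oral WT and 215 and 364 CPM in oral KO tumors. Its log2 fold change was -1.01 (SE 0.33, adjusted p = 0.076), and 29.2% of its 31-base words occur in other genes, many of them processed pseudogenes. Ddx21, a helicase of rDNA transcription and rRNA processing, gave -0.64, Nolc1, a phosphoprotein that binds snoRNPs, -0.63, and Gnl3 (nucleostemin, a GTPase of proliferating cells) -0.32, with adjusted p from 0.10 to 0.27. None of these 5 genes overlapped between the oral groups, and 32.2% of protein-coding genes stood apart in the same direction.

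RNA polymerase I and its factors split into those measured lower and those not. Ubtf measured 142, 150, 233 and 152 CPM in oral WT and 89.3 and 89.2 CPM in oral KO tumors, with nearly equal KO values well below the WT range (log2 fold change -0.85, SE 0.26, adjusted p = 0.069). Rrn3, which recruits the polymerase to the rDNA promoter, measured 71.5, 78.0, 98.9 and 85.8 CPM in oral WT and 52.1 and 55.2 CPM in oral KO tumors (log2 fold change -0.56, SE 0.20, adjusted p = 0.093). Polr1a, the largest subunit of the polymerase, measured 70.5, 73.7, 45.7 and 67.8 CPM in oral WT and 57.8 and 82.7 CPM in oral KO tumors. The groups overlapped, and the log2 fold change of Polr1a was 0.20 (SE 0.24, adjusted p = 0.57), turning to -0.04 without oral KO 2. Polr1b measured 37.0, 37.4, 28.7 and 31.9 CPM in oral WT and 36.7 and 39.5 CPM in oral KO tumors, also overlapping (log2 fold change 0.26, SE 0.18, adjusted p = 0.35).

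In the PeBoW complex, which is needed for large subunit rRNA processing, the 3 partners differed in direction. Pes1 measured 70.8, 78.1, 96.9 and 69.6 CPM in oral WT and 35.5 and 42.6 CPM in oral KO tumors. It was 1.92-fold lower in KO tumors, whose values stood apart from the WT range (log2 fold change -0.94, SE 0.22, adjusted p = 0.035), although 32.4% of its 31-base words are shared with other genes, mainly Gm5910. Bop1 gave -0.44 (SE 0.19, adjusted p = 0.14) with no overlap, and Wdr12 gave 0.26 (SE 0.20, adjusted p = 0.38) with overlap.

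Of the 10 small subunit factors, Ltv1 passed the test, and it had the smallest adjusted p of the 40 genes. Ltv1, a late assembly factor of the small subunit, measured 39.2, 37.9, 44.7 and 38.9 CPM in oral WT and 15.8 and 17.1 CPM in oral KO tumors. Values within each group were tight, and Ltv1 was 2.31-fold lower in KO (log2 fold change -1.21, SE 0.19, adjusted p = 0.020). Of the other small subunit genes, Rcl1, Nop14, Rrp9, Wdr43, Nob1 and Tsr1 gave log2 fold changes from -0.77 to -0.14, while Rrp12, Utp20 and Heatr1 gave 0.30, 0.31 and 0.36, and none of these 9 passed. Rrp12, an export factor of pre-ribosomes, was the single gene of the 40 with both KO tumors above all WT tumors, at 45.5 and 47.5 CPM against 38.2 to 42.8 CPM. Across all genes tested, 22.4% stood apart in that direction, and 12.4% of protein-coding genes did.

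Of the 11 large subunit factors, all were below 0 and Rrs1 and Ebna1bp2 passed the test. Rrs1, which helps to place the 5S ribonucleoprotein into the pre-ribosome, measured 34.0, 32.9, 40.5 and 29.2 CPM in oral WT and 15.6 and 16.7 CPM in oral KO tumors. The groups were well apart, and Rrs1 was 2.01-fold lower (log2 fold change -1.005, SE 0.22, adjusted p = 0.032), with 15.8% of its 31-base words shared with other genes. Ebna1bp2, an assembly factor of early large subunit particles, measured 36.4, 32.5, 43.4 and 38.8 CPM in oral WT and 16.2 and 21.7 CPM in oral KO tumors. It was 1.89-fold lower (log2 fold change -0.92, SE 0.23, adjusted p = 0.040). Ftsj3, an rRNA methyltransferase, lay just past the threshold at -0.65 (SE 0.18, adjusted p = 0.053). Wdr74, Ddx18, Mrto4, Ppan, Nop16, Grwd1, Nop2 and Noc2l ranged from -0.67 to -0.03 with adjusted p from 0.097 to 0.94. Of these, Ddx18 shares 65.5% of its 31-base words with other genes, mostly with Gm16433, and its values are uncertain.

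**Figure D3:**
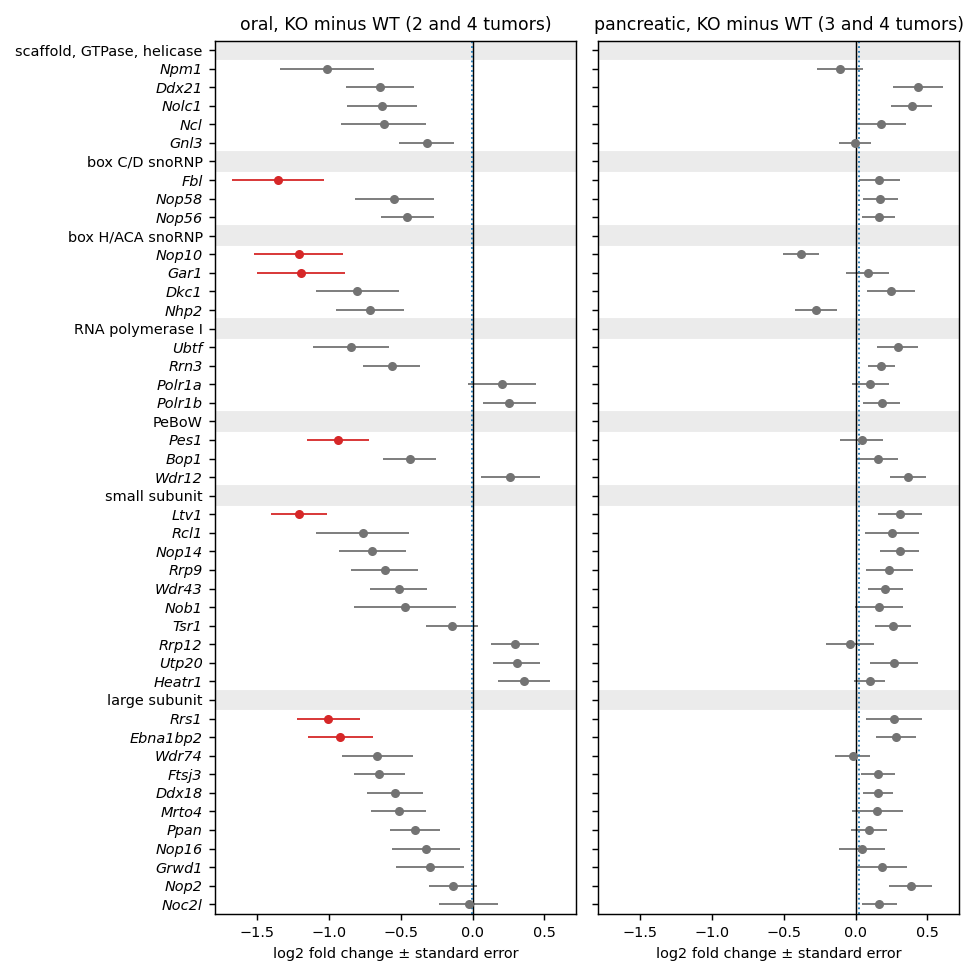
The log2 fold change (Sox2 KO minus WT, points, with its standard error as bars) of the 40 genes by role in oral tumors (2 KO and 4 WT) and pancreatic tumors (3 KO and 4 WT); red marks adjusted p under 0.05, and the dotted line is the median of all genes tested. In oral tumors 34 genes lay below 0 and 7 were called, and in pancreatic tumors 34 lay above 0 and 0 were called.

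In pancreatic tumors, none of the 40 genes differed past the threshold between Sox2 KO and WT tumors. Of 24653 genes tested by edgeR's quasi-likelihood test, 0.706% were called in either direction, and 5 of the 40 had an unadjusted p under 0.05, against 15.9% of all genes tested. DESeq2 called 0 of the 40 as well. The values leaned upward, with 34 of 40 above 0, against 52.6% of all genes, and a median log2 fold change of 0.17, against 0.02 for all genes. The groups did not overlap for 2 genes that were higher in KO and 1 that was lower, against 6.8% and 8.75% of all genes tested.

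The 3 genes without overlap were Nop10, Wdr12 and Nolc1. Nop10 measured 29.0, 28.8, 29.2 and 33.0 CPM in pancreatic WT and 20.4, 24.9 and 23.3 CPM in pancreatic KO tumors, every KO tumor below every WT tumor (log2 fold change -0.38, SE 0.12, adjusted p = 0.19). Wdr12 measured 21.6, 20.3, 23.2 and 23.7 CPM in pancreatic WT and 31.7, 25.02 and 28.4 CPM in pancreatic KO tumors (log2 fold change 0.36, SE 0.13, adjusted p = 0.21). Nolc1 measured 56.1, 68.6, 67.9 and 82.4 CPM in pancreatic WT and 99.7, 82.5 and 86.1 CPM in pancreatic KO tumors, where pancreatic KO 2 and WT 4 nearly met (log2 fold change 0.39, SE 0.14, adjusted p = 0.23). For the others with a small p the groups overlapped. Nop2, an rRNA methyltransferase, measured 36.3, 39.5, 43.1 and 48.3 CPM in pancreatic WT and 64.3, 46.2 and 51.8 CPM in pancreatic KO tumors (log2 fold change 0.38, SE 0.15, adjusted p = 0.26). Ddx21 measured 117, 141, 152 and 194 CPM in pancreatic WT and 221, 176 and 209 CPM in pancreatic KO tumors (log2 fold change 0.43, SE 0.17, adjusted p = 0.28). Nop14, a core processome protein, measured 28.0, 35.3, 31.04 and 38.8 CPM in pancreatic WT and 42.7, 38.7 and 41.3 CPM in pancreatic KO tumors. Its value in KO 2 lay just below the highest WT tumor (log2 fold change 0.31, SE 0.14, adjusted p = 0.32).

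The most abundant genes of the set overlapped between the pancreatic groups. Ncl measured 394, 546, 479 and 634 CPM in WT and 639, 530 and 560 CPM in KO tumors. Npm1 measured 544, 679, 636 and 760 CPM in WT and 670, 638 and 501 CPM in KO tumors, and Fbl measured 61.2, 80.8, 72.2 and 89.3 CPM in WT and 93.1, 75.9 and 84.6 CPM in KO tumors. Their log2 fold changes were 0.18 (SE 0.17), -0.11 (SE 0.16) and 0.17 (SE 0.15). Pancreatic WT 4 lay above 2 of the 3 KO tumors for Ncl and for Fbl.
Nop56 measured 111, 103, 99.0 and 107 CPM in WT and 137, 104 and 108 CPM in KO tumors, and Dkc1 measured 52.5, 63.1, 62.6 and 76.7 CPM in WT and 89.4, 61.4 and 74.5 CPM in KO tumors. Both were highest in pancreatic KO 1 and otherwise interleaved. Among the rDNA transcription genes, Polr1a measured 52.7, 50.9, 61.1 and 62.0 CPM in WT and 56.4, 55.9 and 68.6 CPM in KO tumors. Polr1b measured 29.8, 29.5, 33.8 and 29.4 CPM in WT and 34.8, 29.7 and 38.8 CPM in KO tumors. Rrn3 measured 71.8, 75.8, 76.3 and 82.3 CPM in WT and 93.0, 84.5 and 80.7 CPM in KO tumors, and Ubtf measured 96.4, 124, 117 and 143 CPM in WT and 145, 135 and 157 CPM in KO tumors. Each of these 4 had its highest value in a KO tumor, with log2 fold changes from 0.10 to 0.29 and adjusted p from 0.37 to 0.74. The box H/ACA proteins were mixed, since Nop10 and Nhp2 were at -0.38 and -0.28 and Dkc1 and Gar1 at 0.25 and 0.08. Summed acinar markers were 248 CPM in pancreatic KO 3 and at most 13.6 CPM in the other tumors. All 8 fibroblast markers and all 6 endothelial markers were also above 0 in KO tumors, at median log2 fold changes of 0.79 and 0.61, with 0 of either list called. Their summed levels were 1138 to 2231 CPM in WT and 2135 to 3694 CPM in KO tumors for the fibroblast list, and 99.7 to 150 CPM and 132 to 183 CPM for the endothelial list. The part of these cell types in the pancreatic values was not tested.

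Whether the KO minus WT change itself differed between the tissues was tested as an interaction over all 13 tumors. The change was called lower in oral than in pancreatic tumors for 17 of 40 genes (42.5%), against 7.62% of the 25836 genes tested and 10% of protein-coding genes. None of the set was called in the other direction, against 7.71% of all genes and 3.52% of protein-coding genes. The interaction was below 0 for 36 of 40, against 50.9% of all genes tested and 61.7% of protein-coding genes. The 17 genes were Nolc1 and Ddx21 of the scaffold group, Fbl, Nop56, Dkc1 and Gar1 of the snoRNPs, Rrn3 and Ubtf, Pes1, the small subunit factors Rrp9, Nop14, Wdr43 and Ltv1, and the large subunit factors Rrs1, Ddx18, Ftsj3 and Ebna1bp2. The median interaction of the 40 genes was -0.77 on the log2 scale, against -0.03 for all genes and -0.28 for protein-coding genes. The muscle markers of the oral KO tumors, the RNA composition of oral KO 1 and the depth differences enter this test too. Their part in the interaction was not tested. The count depended on single tumors and was 9 without pancreatic KO 3, and 11 without pancreatic KO 1 or without pancreatic WT 3. In these fits 6.77%, 11% and 7.21% of all genes were called in either direction, against 15.3% in the full fit. With protein-coding genes alone the count was 9, beside 6.28% of the genes in that fit, and the median -0.57. Relative to protein-coding genes the set stood at -0.49 in that fit and in the full fit, but at -0.32 without oral KO 1. An absolute log2 fold change above 1 was also met by 11 of the 17, and 12.3% of all genes met both thresholds.

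The smallest adjusted p of the interaction was again that of Ltv1. Ltv1 measured 23.04, 28.6, 25.8 and 35.2 CPM in pancreatic WT and 35.8, 33.1 and 34.9 CPM in pancreatic KO tumors, against the drop in oral KO tumors given above (interaction -1.58, SE 0.23, adjusted p = 0.0050). Ebna1bp2 measured 26.7, 32.5, 30.7 and 35.3 CPM in pancreatic WT and 43.9, 34.6 and 34.7 CPM in pancreatic KO tumors (interaction -1.26, SE 0.25, adjusted p = 0.011). Rrs1 measured 21.8, 30.8, 29.4 and 40.1 CPM in pancreatic WT and 39.1, 33.3 and 36.9 CPM in pancreatic KO tumors (interaction -1.33, SE 0.29, adjusted p = 0.015). For each of them the pancreatic groups overlapped, with pancreatic WT 1 lowest. Fbl gave an interaction of -1.58 (SE 0.34, adjusted p = 0.015) and Ubtf of -1.20 (SE 0.28, adjusted p = 0.019). Ftsj3 measured 74.1, 59.1, 70.3 and 72.9 CPM in oral WT, 40.2 and 43.3 CPM in oral KO, 47.9, 50.2, 51.6 and 59.7 CPM in pancreatic WT and 62.8, 52.4 and 58.6 CPM in pancreatic KO tumors. Its oral groups were apart and its pancreatic groups overlapped (interaction -0.87, SE 0.19, adjusted p = 0.015). Pes1 and Gar1 gave interactions of -1.04 and -1.34, with adjusted p of 0.020 for both. The 4 genes above 0 were Rrp12, Heatr1, Polr1a and Polr1b, at 0.27, 0.19, 0.04 and 0.01, and the last 2 turned below 0 in several alternative fits.

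Between the tissues, in WT tumors alone, 6 of 40 genes were higher in oral tumors (15.0%) and none lower, against 12.1% of the 23164 genes tested that were higher in oral tumors and 11.6% that were lower. The share was close to that of all genes. The median log2 fold change, oral minus pancreatic, was 0.17 for the 40 genes and 0.00 for all genes, with 32 of 40 above 0, against 50.3% of all genes. All oral WT tumors lay above all pancreatic WT tumors for 5 of 40, against 14.2% of all genes, and below them for 1, against 13.8%. Markers of other cell types moved between the tissues too: 8 of 8 fibroblast markers were called higher in oral WT tumors (median 2.71), muscle markers had a median of 3.06 with 4 of 13 called higher, and 5 of 8 basal markers were called lower (median -1.21). Summed levels were 8729 to 19149 CPM in oral WT and 1138 to 2231 CPM in pancreatic WT tumors for the fibroblast list, and 4810 to 9029 CPM and 10199 to 17660 CPM for the basal list, and their part in the result was not tested. None of the 6 had an absolute log2 fold change above 1, against 16.5% of all genes tested that met both thresholds. Rcl1, a processome factor related to cyclases, measured 27.1, 32.4, 50.6 and 27.9 CPM in oral WT and 15.4, 19.95, 18.8 and 24.1 CPM in pancreatic WT tumors, a 1.77-fold difference with no overlap (adjusted p = 0.031). Utp20, a large scaffold of the processome, measured 63.5, 75.1, 67.0 and 66.1 CPM in oral WT and 35.5, 44.6, 45.8 and 55.0 CPM in pancreatic WT tumors. It was 1.502-fold higher in oral tumors (adjusted p = 0.018). Wdr12 measured 31.3, 31.2, 32.7 and 29.8 CPM in oral WT tumors, all above the pancreatic WT values given above (1.41-fold, adjusted p = 0.014). Rrp12 measured 38.2, 39.0, 42.8 and 39.9 CPM in oral WT and 26.8, 26.4, 33.0 and 29.1 CPM in pancreatic WT tumors (1.39-fold, adjusted p = 0.020). Ltv1 was 1.43-fold higher with no overlap (adjusted p = 0.035), and Ftsj3 1.32-fold higher with overlap (adjusted p = 0.040). Nop16, a large subunit factor, was the single gene with all oral WT tumors below all pancreatic ones, at 16.1 to 24.0 against 25.5 to 29.7 CPM (log2 fold change -0.44, SE 0.15, adjusted p = 0.063). The 6 calls became 3 without oral WT 2, without pancreatic WT 1 or without pancreatic WT 3, and 1 without pancreatic WT 2. In these fits 15.7% to 17% of all genes were called in either direction, against 23.7% in the full fit. Oral WT values also enter the oral KO comparison, so the 2 sets of values are not independent.

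Within the WT groups, most of the 40 genes had their highest value in the same tumor. These ranks were counted for the 40 genes alone and not over all genes, so they are no result particular to the set. Oral WT 3 had the highest value of the 4 oral WT tumors for 27 of 40 genes, with a median of 0.23 above the oral WT mean on the log2 scale, while the other oral WT tumors lay between -0.08 and -0.03. The box C/D genes stood highest there, with a median of 0.51, and Polr1a lowest, at -0.47. The proliferation markers, 20 genes such as Mki67 and Top2a, summed to 2623 CPM in oral WT 3 and 1482 to 1875 CPM in the other oral WT tumors. Pancreatic WT 4 was highest for 33 of 40 genes (median 0.20) and pancreatic WT 1 lowest for 28 of 40 (median -0.18), while the summed proliferation markers of the pancreatic WT tumors lay between 1511 and 1684 CPM. The medians of the 40 genes differed by an SD of 0.15 between tumors in either WT group. Both oral KO medians lay below the range of the oral WT tumors.

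Other genes of ribosome biogenesis outside the set were followed by lists of polymerase I, processome, large subunit, snoRNP and exosome genes, of which 137 of 141 were found and 136 tested. In oral tumors 2 of 136 were higher (1.47%) and 11 lower (8.09%) in KO, against 9.2% and 4.58% of all genes. Of protein-coding genes, 3.51% were called higher and 5.74% lower. The median log2 fold change of the 136 was -0.45, against -0.21 for protein-coding genes. Mdn1, a giant ATPase of large subunit maturation, and Urb1, a large subunit factor, were higher at 1.13 and 0.71 (adjusted p = 0.023 and 0.044). Polr2e, a subunit shared by all 3 nuclear polymerases, and Ruvbl1, an ATPase of snoRNP assembly, were among the lower ones at -1.21 and -1.25 (adjusted p = 0.022 and 0.028). In pancreatic tumors edgeR's quasi-likelihood test called 0 of 136, with a median of 0.13, while at an unadjusted p under 0.05, 16 were higher and 2 lower (13.2% together, below the 15.9% of all genes). DESeq2 called 2 lower, and 6.86% of all genes in either direction. By edgeR, those with the smallest p there above 0 were Rbm28 and Nat10, at 0.39 and 0.36 (adjusted p = 0.18 and 0.21). Below 0 they were C1d and Znhit3, at -0.40 and -0.69 (adjusted p = 0.14 and 0.20). In the interaction 1 was higher (Mdn1, 1.07, adjusted p = 0.019) and 40 lower (29.4%), with a median of -0.67. The shares called higher and lower were 7.71% and 7.62% of all genes, and 3.52% and 10% of protein-coding genes. Polr2e at -1.28 and Nifk, a nucleolar partner of Ki-67, at -1.30 had the smallest adjusted p among the lower ones (0.0078 and 0.0086), and Znhit3 at 0.78 did not pass (adjusted p = 0.15). Between WT tumors 5 were higher and 5 lower in oral tumors (3.68% each), fewer than the 12.1% and 11.6% of all genes. By adjusted p the first were Rrp1b and Rbm28 on the higher side (log2 fold changes 0.76 and 0.51) and Mphosph6 and Las1l on the lower side (-1.30 and -0.81).

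Myc itself measured 178, 166, 120 and 189 CPM in oral WT and 94.5 and 122 CPM in oral KO tumors, where oral KO 2 overlapped oral WT 3 (log2 fold change -0.51, SE 0.23, adjusted p = 0.15). Oral WT 3 had the lowest Myc level of the oral WT tumors and the highest level of most of the 40 genes, an observation on 1 tumor. In pancreatic tumors Myc measured 259, 323, 245 and 315 CPM in WT and 333, 339 and 286 CPM in KO (log2 fold change 0.17, SE 0.14, adjusted p = 0.60). Between WT tumors Myc was called lower in oral tumors (-0.81, SE 0.17, adjusted p = 0.0097), as were 11.6% of all genes tested. In the same tumors 32 of the 40 genes were measured above their pancreatic level. Whether the levels of the 40 genes go with that of Myc was not tested. Max, the dimer partner of MYC, measured 75.5 to 102 CPM in oral WT and 51.6 and 53.2 CPM in oral KO tumors (log2 fold change -0.68, SE 0.20, adjusted p = 0.059), and its interaction was -0.85 (adjusted p = 0.019). The 20 proliferation markers had a median log2 fold change of -0.67 in oral tumors, beside -0.55 for the 40 genes. There edgeR called 0 of 20 (3 lower at an unadjusted p under 0.05, and 2 by DESeq2). The summed level of these markers was 999 and 1730 CPM in oral KO tumors, with oral KO 2 inside the WT range. In pancreatic tumors their median was -0.02, and 0 of 20 had an unadjusted p under 0.05 or were called by either tool. Their median interaction was -0.75, beside -0.77 for the 40 genes and -0.28 for protein-coding genes. It was below 0 for 17 of 20, against 61.7% of protein-coding genes. There edgeR called 2 of 20 lower, against 7.62% of all genes and 10% of protein-coding genes. DESeq2 called 5 lower, beside 23.7% of all genes in either direction. The part of proliferation in the values of the 40 genes was not tested.

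Longer genes of the set had higher log2 fold changes in oral tumors, and to some extent in the other comparisons. The 8 genes of the set with a principal transcript over 4 kb had a median log2 fold change of 0.23, against -0.61 for the 15 genes of 1 to 2 kb and -0.75 for the 10 genes of 2 to 3 kb. All 7 called genes lay between 1 and 3 kb, and the 6 genes above 0 (Polr1a, Polr1b, Wdr12, Rrp12, Utp20 and Heatr1) had transcripts from 3998 to 10012 bases. Ncl, Ddx21 and Ubtf, also over 4 kb, were below 0. Ncl and Wdr12 were placed in this range by the long transcripts taken for them, with coding sequences of 2121 and 1269 bases. Protein-coding genes as a whole followed the same order, from -0.62 under 1 kb through -0.45, -0.29 and -0.20 to 0.01 over 4 kb. Spearman's rho of length and oral log2 fold change was 0.44 over the 40 genes and 0.26 over 16305 protein-coding genes, values across genes that share the same 6 libraries and are no replicates. In the other comparisons rho over the 40 genes was 0.47 (pancreatic KO minus WT), 0.40 (oral minus pancreatic WT) and 0.24 (interaction). Over protein-coding genes rho was 0.11, 0.05 and 0.15 in the same order. The part of length in the oral result was not tested. Within the ranges of 1 to 2, 2 to 3 and 3 to 4 kb the oral median of the set was lower than that of protein-coding genes of like length. Over 4 kb it was higher, and under 1 kb the single gene of the set, Mrto4, was higher too, at -0.51 against -0.62.

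**Figure D4:**
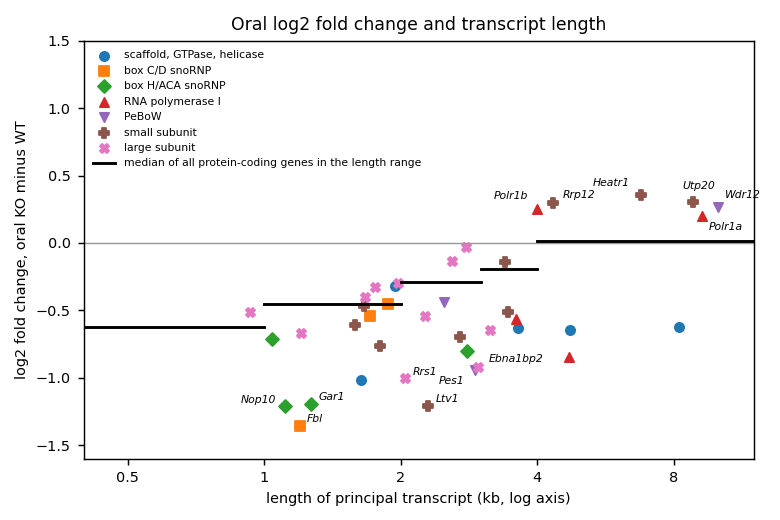
Oral log2 fold change (KO minus WT) of the 40 genes against the length of the principal transcript in kb on a log axis, with symbols by role, and the median of all protein-coding genes in 5 length ranges (black lines). Named points are the 7 called genes, all between 1 and 3 kb, and the 6 genes above 0, with transcripts from 3998 to 10012 bases.

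Several of these genes carry snoRNA genes in their introns, and the products of the pathway were looked for as well. On the strand of 8 members, 23 snoRNA genes of 68 to 133 bases are annotated, among them Snord82 in Ncl, Snord57 in Nop56 and Snord70 in Nop58. Of these, 7 were listed at 0 in every tumor, and none exceeded 1.89 CPM. The highest count of any of them was 93, for Snord53 in Wdr43, and they were not compared between groups. Of 5 transcripts of the rDNA repeat looked for, n-R5-8s1 was found, with at most 0.199 CPM after rRNA depletion, and pre-rRNA itself was not analysed here.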

How the data were processed

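Estimated counts per gene were used, as the authors deposited them: reads were trimmed (Trim Galore 0.6.10), checked (FastQC 0.12.1) and quantified with kallisto 0.50.0 against the GENCODE M23 mouse transcriptome (GRCm38) in strand-specific mode, and summed per gene by tximport; 27.3% of the values were not whole and all were rounded. Symbols, positions and lengths came from GENCODE M21, which held 55141 of the 55332 identifiers with values. Genes reaching 10 counts in 2 or more tumors of a comparison were tested with edgeR 4.0.16 (R 4.3.3; TMM scaling, robust quasi-likelihood F-test, Benjamini-Hochberg adjustment over all genes tested); calls are at adjusted p under 0.05. CPM used TMM factors over all 13 tumors, and differences per tumor log2(CPM + 0.5). Shared words are 31-base words of a gene's transcripts found in other genes. DESeq2 1.42.0 and the other alternatives are given in the closing section; the fits were tested on simulated counts. The members and lists were chosen with earlier results of these data known. Named genes are 9 anchors (Ncl, Npm1, Fbl, Nop56, Dkc1, Polr1a, Polr1b, Rrn3, Ubtf), the 6 genes of the set with the smallest adjusted p in each comparison, and for the other biogenesis genes the 2 in each direction. Nop10, Nop16, Nop58 and others beyond that rule were named after their values were seen.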

Additional observations from a re-analysis of the deposited data

Results flagged for a closer look

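In 80 groups of 4 WT tumors (40 genes in each tissue), 8 had a tumor that stood apart from the other 3 by Dixon's ratio. Chance gives about 1 in 20 for independent groups, but the genes of a tissue share the same 4 tumors. The share over all genes was not counted, so the 8 flags are no excess shown for the set. Oral WT 3 was the tumor in 4 of them, with 138 CPM for Fbl, 124 CPM for Dkc1, 233 CPM for Ubtf and 132 CPM for Wdr43. The other oral flags were low values in oral WT 4, 45.5 CPM for Bop1 and 46.4 CPM for Tsr1. In pancreatic WT tumors, Nop10 was high in tumor 4 (33.0 CPM) and Polr1b in tumor 3 (33.8 CPM).

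The KO minus WT change differed between oral and pancreatic tumors for 17 genes by the interaction test, with the limits given for that test above. On the log2 scale, oral minus pancreatic, it was -1.58 for Ltv1, -1.58 for Fbl, -1.34 for Gar1, -1.33 for Rrs1, -1.26 for Ebna1bp2, -1.20 for Ubtf, -1.14 for Ddx21, -1.11 for Dkc1, -1.08 for Nolc1, -1.06 for Nop14 and -1.04 for Pes1. For Rrp9, Ftsj3, Rrn3, Wdr43, Ddx18 and Nop56 it was -0.91, -0.87, -0.81, -0.78, -0.76 and -0.68.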

How the results depend on the processing

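With 2 oral KO tumors, the oral and interaction counts moved with the setting more than the medians did. The oral count of 7 (13.8% of all genes called) became 0 with protein-coding genes alone (0.165%) and 26 in 1 fit of all 13 tumors (29.2%). It ranged from 0 to 6 when an oral WT tumor was left out (0.163% to 13.4%). The interaction count of 17 became 9 with protein-coding genes alone (median -0.57) and 11 when an absolute log2 fold change above 1 was also required, and ranged from 4 to 22 when a tumor was left out. The WT tissue count of 6 (23.7% of all genes) became 0 with that fold threshold (16.5%) and ranged from 1 to 7 when a tumor was left out (15.7% to 25.2%). The pancreatic count stayed at 0 in each alternative run. Leaving out an oral KO tumor leaves 1, which is assumed to vary like the other tumors of the fit. Calls of those fits are therefore not counted in the oral range. The low end of the interaction range came from the fit without oral KO 1, so it carries this limit and is not relied on. With both oral KO tumors kept, the lowest interaction count was 9, without pancreatic KO 3. The cause of these moves was not tested, and fewer tumors or genes enter some fits by construction.

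Medians of the 40 genes kept their sign throughout. When a tumor was left out they ranged from -0.66 to -0.43 (oral), 0.12 to 0.26 (pancreatic), 0.09 to 0.26 (WT tissues) and -0.87 to -0.68 (interaction). Relative to protein-coding genes the oral median ranged from -0.43 to -0.16 and the interaction from -0.58 to -0.32, both smallest in size without oral KO 1. DESeq2's own test called 10 genes in oral tumors and 25 in the interaction, beside 23.2% and 23.7% of all genes.

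Tumors with the same number did not pair: correlations of same-numbered tumors' deviations ran from -0.08 to 0.32, and 1 pair was over 0.1. With the replicate number as a block, the counts were 0 (oral), 0 (pancreatic), 1 (WT tissues) and 7 (interaction), at medians of -0.47, 0.23, 0.17 and -0.72. Of all genes, 0.291%, 2.96%, 15.9% and 6.29% were called in these fits.

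Signs changed for values near 0. The interaction of Polr1a was -0.0125 with DESeq2 size factors, -0.0108 in DESeq2's test and -0.10 with no count filter, and that of Polr1b was -0.0418, -0.0406 and -0.13. When a tumor was left out, they ranged from -0.24 to 0.22 and from -0.0861 to 0.11. Over the same refits Polr1a ranged from -0.0405 to 0.42 in oral and from -0.00181 to 0.16 in pancreatic tumors, Npm1 from -0.20 to 0.0104 in pancreatic tumors and from -0.28 to 0.00884 between WT tissues, and Nop56 from -0.0802 to 0.0456 between WT tissues.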
